A study of Arabidopsis thaliana with 4 samples.

Results

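The genes described here are nuclear genes of Arabidopsis thaliana that are listed by locus code alone (AT, the chromosome number, G and 5 digits) and whose probe set was bright on each of 4 Affymetrix ATH1 arrays. Bright means a deposited log2 value at or above a fixed limit, which in linear terms is 5793 signal units. They number 13 of 11798 locus-coded nuclear genes measured, and of 13356 genes that a probe set of a single gene stands for. The arrays hold RNA of whole 10-day-old seedlings, 2 OsRR6ox samples and 2 wild type samples, all of accession Col-0, grown untreated on plates of half-strength MS medium in a long-day light cycle. The OsRR6ox plants carry extra expression of OsRR6 from rice, which belongs to the type-A response regulators, small proteins of the cytokinin response. The labels used here name neither the promoter that drives the transgene nor the number of lines, and they do not say how many seedlings made up a sample. Samples are called biological replicates without a word on what separates them, so a p-value here covers only the spread between these samples, which may be technical.

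The level rule used the values of all 4 arrays, so the levels are a description and not a test. It also limits what a comparison of genotypes can find, because a gene that lay far below the limit in either genotype is not among the 13. The label of this gene group, most abundant nuclear seedling transcripts, holds only as brightness, since the signal of a probe set depends on its probes as well as on its transcript. Nor are the 13 all the bright probe sets. Of 116 probe sets other than array controls at or above the limit on each array, 10 belong to nuclear genes with a symbol, 12 to plastid genes, 6 to several genes and 75 to no gene in the annotation used here.

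In a green seedling, transcripts for photosynthesis, for the protein synthesis machinery and for basic metabolism are typically among the most plentiful, and many of them come from gene families with several near-identical copies. A single one of the 13 genes has a name in the tables used here, AT4G01150, which is CURT1A. CURT1 proteins sit in the thylakoid membrane of the chloroplast, where they bend the membrane at the margins of the grana stacks. The other 12 have only clone names or none, so no function is assigned to them here. They lie on all nuclear chromosomes, and the 13 divide into 2 on chromosome 1, 2 on chromosome 2, 3 on chromosome 3, 2 on chromosome 4 and 4 on chromosome 5. Each of the 13 is measured by 1 probe set, and no other probe set in the annotation includes any of them.

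Of the planned markers, 3 of 8 for shoot, 4 of 6 for root, 2 of 8 for seed and 2 of 5 for anther were measured. Those of shoot and root lay above the array background, which is the lowest 25% of probe sets, and so did those of seed, at lower values. The antenna gene LHCB4.1 read 13.13 and 13.38 in OsRR6ox and 13.08 and 13.08 in wild type, and PYK10, a beta-glucosidase gene of root and hypocotyl endoplasmic reticulum bodies, read 12.71 and 12.84 in OsRR6ox and 12.965 and 13.003 in wild type. The seed gene OLEO3 read 5.43 and 5.09 in OsRR6ox and 5.52 and 5.44 in wild type. LEA4-5, the other seed gene, read 4.88 and 4.54 in OsRR6ox and 5.72 and 5.33 in wild type. Its value of 4.54 on OsRR6ox replicate 2 lay close to the upper edge of that array's background, 4.41. Its difference of -0.81 did not pass (limma adjusted p = 0.162). The anther genes AMS and SPL lay in the lowest 25% of probe sets on all 4 arrays. Of 4 root genes EXPA7, an expansin gene of root hairs, rose, at 8.30 and 8.63 in OsRR6ox and 7.18 and 6.96 in wild type (limma adjusted p = 0.0392). EXPA18 differed by 1.11 without passing, and NAI1 and PYK10 by -0.19 and -0.21. Of 3 shoot genes 0 passed (limma), with LHCB4.2 at 1.20, PORB, an enzyme gene of chlorophyll synthesis, at 0.55 and LHCB4.1 at 0.17. The part of these markers in the results that follow was not tested. The number of arrays limits the precision.

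None of the 13 genes passed the comparison of OsRR6ox with wild type, which asks how over-expression of the rice regulator alters seedling transcripts (limma, Benjamini-Hochberg adjusted p under 0.05 over 22746 probe sets). The background share of calls was 1.3% of all probe sets, and 0.0% of the 103 other probe sets as bright as these. With an unadjusted p under 0.05 there was 1 of the 13, AT2G45180, where 15.0% of all probe sets and 9.71% of the other bright ones fell under that limit. The differences ran from -0.18 to 0.35 on the log2 scale with a median of 0.08, and 7 of 13 were above 0, against a median of -0.04 for all probe sets. Adjusted p-values ran from 0.315 to 0.961 (limma). The 95% intervals of the 13 genes, each taken alone, lay between 0.674-fold and 1.61-fold. In whole seedlings, fewer cells of a type and less RNA per cell cannot be told apart.

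**Figure D1:**
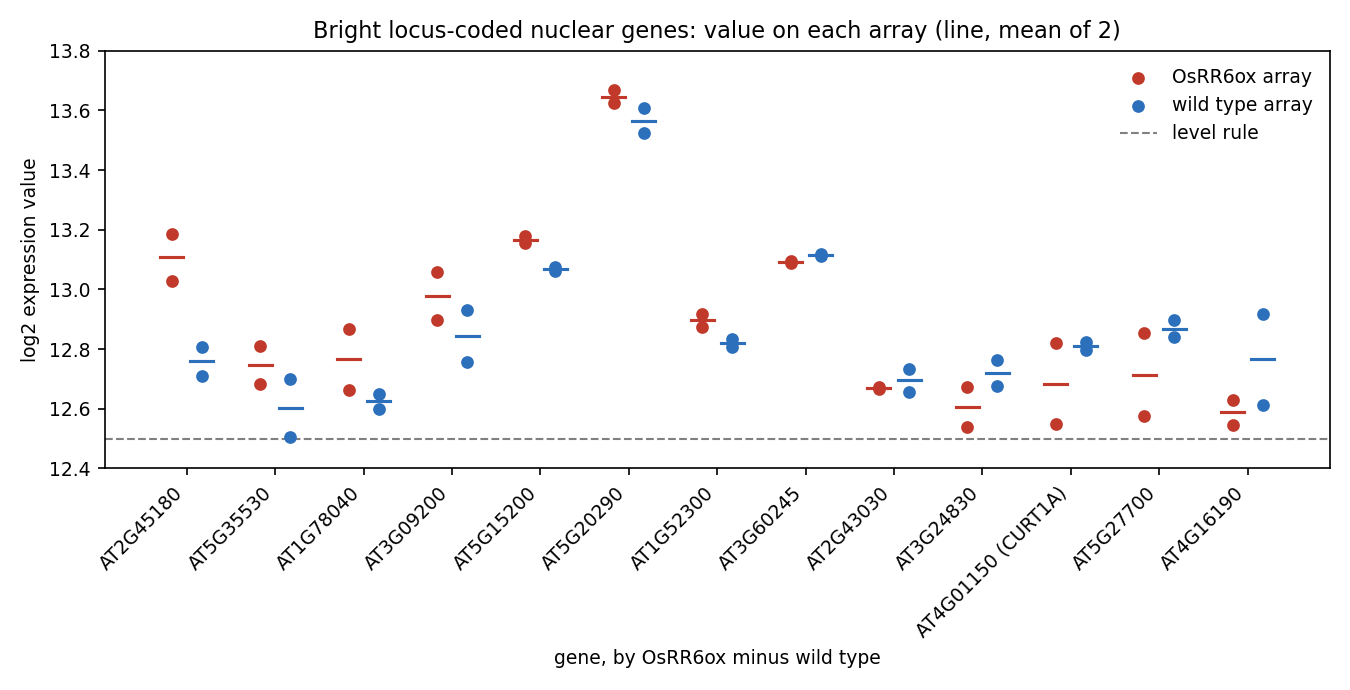
Deposited log2 expression values (vertical axis) of the 13 genes (horizontal axis, from the largest to the smallest difference) on the OsRR6ox arrays (red) and the wild type arrays (blue), with a line at the mean of 2 arrays and a dashed line at the brightness limit. All points lie between 12.51 and 13.67, and AT2G45180 shows the widest step between genotypes.

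CURT1A read 12.82 and 12.55 in OsRR6ox, against 12.80 and 12.83 in wild type. OsRR6ox replicate 2 was the low array, and OsRR6ox replicate 1 lay between the wild type arrays, so the genotypes overlapped. The difference was -0.13 with a 95% interval of -0.50 to 0.24 (limma adjusted p = 0.758), and without OsRR6ox replicate 2 it was 0.01. Its paralogs CURT1C and CURT1D, listed as AT1G52220 and AT4G38100, were also measured, and were looked up after their values were seen. CURT1C read 10.29 and 10.55 in OsRR6ox and 10.49 and 10.80 in wild type, a difference of -0.23 whose arrays overlapped (limma adjusted p = 0.614). CURT1D read 8.24 and 8.20 in OsRR6ox and 9.01 and 9.32 in wild type, a difference of -0.95 without overlap that did not pass either (limma adjusted p = 0.0705). Thus no measured CURT1 gene passed the test, and the lowest fold, 0.519, belonged to CURT1D, which is not among the bright genes.

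A list of nuclear genes whose names hold words for light harvesting, the photosystems or the thylakoid has 11 measured genes, CURT1A among them. Of 13356 genes measured, 11798 are listed by locus code, and a gene whose names lack such words cannot enter. The bright gene PSAE-1, also named PSI-E, is missed in this way, so the list does not stand for all photosynthesis genes. Of the 11 genes listed, 1 fell and 0 rose (limma, all probe sets, background 1.3%), and the median difference was -0.13. The arrays of 3 genes were higher in OsRR6ox without overlap and those of 3 were lower, where 18.1% and 28.0% of all probe sets were so. The gene that fell is LHCB4.3, which encodes a CP29-type antenna protein, at 8.92 and 8.87 in OsRR6ox and 10.17 and 10.44 in wild type. Its paralog LHCB4.2 differed the other way without passing, at 12.57 and 12.58 in OsRR6ox and 11.13 and 11.62 in wild type, a difference of 1.20 without overlap (limma adjusted p = 0.0705). PSBW and PSBY, for small subunits of photosystem II, lay near the brightness limit, PSBW below it on all 4 arrays and PSBY below it on wild type replicate 1. PSBW read 12.29 and 12.16 in OsRR6ox and 12.42 and 12.46 in wild type, and PSBY 12.677 and 12.504 in OsRR6ox and 12.45 and 12.55 in wild type. PSBW differed by -0.21 and PSBY by 0.09, and neither passed (limma adjusted p = 0.510 for PSBW).

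Arrays did not overlap between genotypes in 7 of the 13 genes, where 46.1% of all probe sets and 53.4% of the other bright ones showed no overlap. In 5 of the 13 genes both OsRR6ox arrays read above both wild type arrays, where 18.1% of all probe sets and 26.2% of the other bright ones did so. AT2G45180 read 13.19 and 13.03 in OsRR6ox and 12.71 and 12.81 in wild type. Its means were 13.11 ± 0.11 in OsRR6ox and 12.76 ± 0.07 in wild type (SD, n = 2 each), a difference of 0.35 with a 95% interval of 0.01 to 0.68, or 1.27-fold (limma adjusted p = 0.315). Its unadjusted p was above 0.05 in 8 of 12 alternative fits, among them the replicate block, median centring and each fit with an array left out. The step of 0.35 exceeds the gaps between replicates, 0.158 in OsRR6ox and 0.0952 in wild type. Less the mean of the 13 genes on its own array, a scale on which array-wide shifts cancel, AT2G45180 stood at 0.27 and 0.15 in OsRR6ox and at -0.17 and -0.04 in wild type. On that scale too the genotypes did not overlap. The mean includes AT2G45180 and ran only from 12.85 to 12.91 over the 4 arrays. That is too little to make the genotypes overlap, so this scale adds no support.

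AT1G78040 read 12.66 and 12.87 in OsRR6ox and 12.65 and 12.60 in wild type. The lower OsRR6ox array lay just above the higher wild type array, and the gap of 0.204 between the OsRR6ox arrays is wider than the difference of 0.14. AT5G15200 read 13.16 and 13.18 in OsRR6ox and 13.06 and 13.07 in wild type. Here the replicates lay close together, with gaps of 0.0227 in OsRR6ox and 0.0141 in wild type, and the difference of 0.10 was larger than both (95% interval -0.20 to 0.40, limma adjusted p = 0.772).

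AT5G20290 was the brightest of the 13 and read 13.62 and 13.67 in OsRR6ox and 13.52 and 13.61 in wild type. The genotypes nearly met, and the difference of 0.08 was smaller than the gap of 0.083 between the wild type arrays. AT1G52300 read 12.92 and 12.88 in OsRR6ox and 12.83 and 12.81 in wild type, a difference of 0.08 that exceeded both replicate gaps. The intervals of AT5G20290 and AT1G52300 reached from -0.23 to 0.39 and from -0.23 to 0.38.

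In 2 of the 13 genes both OsRR6ox arrays read below both wild type arrays, where 28.0% of all probe sets and 27.2% of the other bright ones did so. AT3G24830 read 12.67 and 12.54 in OsRR6ox and 12.76 and 12.68 in wild type. The higher OsRR6ox array and the lower wild type array almost touched, and the difference was -0.11 (95% interval -0.44 to 0.21). AT3G60245 read 13.09 and 13.10 in OsRR6ox and 13.12 and 13.11 in wild type. Its replicates lay within 0.0073 in OsRR6ox and 0.0045 in wild type, the narrowest gaps among the 13 in both genotypes, and its difference of -0.02 was small but wider than either gap (95% interval -0.33 to 0.28, limma adjusted p = 0.961).

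The other 6 genes overlapped between genotypes, CURT1A among them. AT3G09200 read 13.06 and 12.90 in OsRR6ox and 12.93 and 12.76 in wild type, and AT5G35530 read 12.81 and 12.68 in OsRR6ox and 12.70 and 12.51 in wild type. In both genes replicate 1 was the higher array of each genotype, by 0.161 in OsRR6ox and 0.175 in wild type for AT3G09200, and by 0.127 in OsRR6ox and 0.193 in wild type for AT5G35530. Their differences, 0.13 and 0.14, were narrower than the gaps between the wild type arrays. AT2G43030 read 12.67 and 12.67 in OsRR6ox and 12.66 and 12.73 in wild type, with the OsRR6ox arrays between the wild type arrays and a difference of -0.03.

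AT5G27700 read 12.58 and 12.85 in OsRR6ox and 12.84 and 12.90 in wild type. The low value was that of OsRR6ox replicate 1, and the difference was -0.15. AT4G16190 read 12.63 and 12.55 in OsRR6ox and 12.92 and 12.61 in wild type. Here wild type replicate 1 was the high array, and the difference of -0.18, the lowest of the 13, was smaller than the gap of 0.306 between the wild type arrays.

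**Figure D2:**
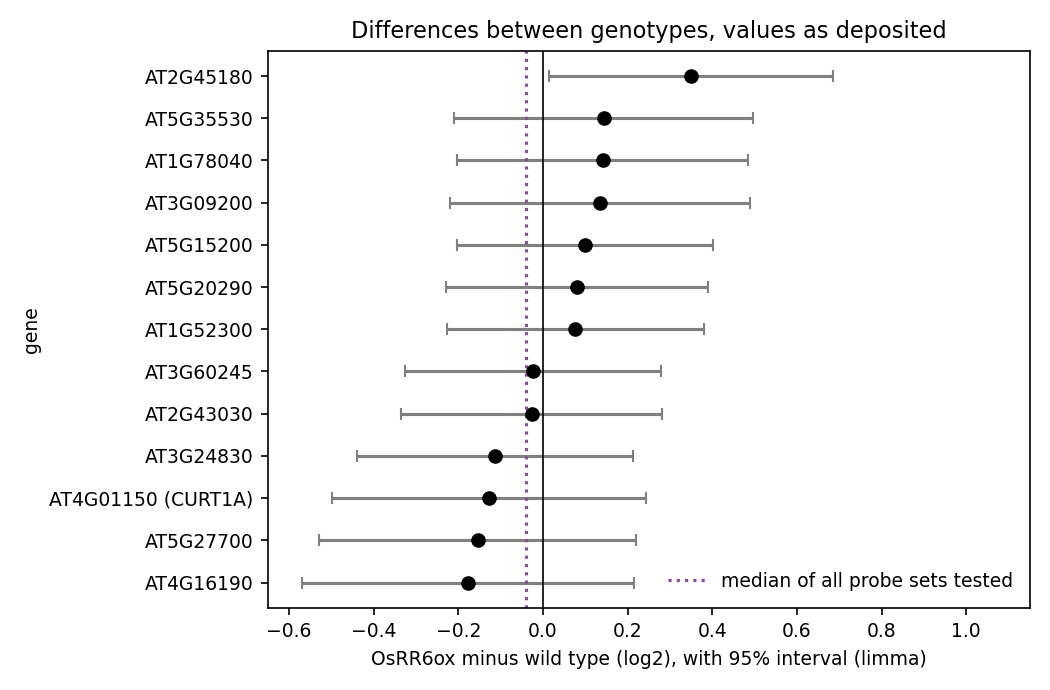
Difference between OsRR6ox and wild type (horizontal axis, log2, values as deposited) for each of the 13 genes (vertical axis), with its 95% interval from limma, the line at 0 and, dotted, the median of all probe sets at -0.04. The interval of AT2G45180, from 0.01 to 0.68, is the one that leaves out 0, and those of the other 12 include it, though its unadjusted p was above 0.05 in 8 of 12 alternative fits. After centring on spike-in controls, which is not drawn here, all 13 differences lay above 0.

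Median centring and quantile normalization kept the sign of all 13 differences, and centring on spike-in controls did not. With each array centred on its 42 spike-in controls, all probe sets together had a median of 0.49, and all 13 differences then lay above 0, between 0.35 and 0.88, with 1 call, AT2G45180 at 0.88 (limma adjusted p = 0.0284), where 13.2% of all probe sets and 11.7% of the other bright ones were called under that centring. That centring shifts all probe sets alike, so the count of genes above the median of all probe sets was 9 of 13 with it and 9 of 13 as deposited. After quantile normalization the count was 7 of 13. The mean of the controls was 8.45 and 8.43 on the OsRR6ox arrays and 8.80 and 9.13 on the wild type arrays, so it varied between the wild type replicates too. Why the controls read higher on the wild type arrays was not tested.

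As deposited, the mean of the 13 genes was 12.91 and 12.88 on the OsRR6ox arrays and 12.89 and 12.85 on the wild type arrays. Less the median of all probe sets on the same array, the mean stood at 6.14 and 6.13 in OsRR6ox and at 6.08 and 6.14 in wild type. The genotypes overlapped on that scale. The number of probe sets at or above the limit was likewise close, at 170 and 164 on the OsRR6ox arrays and 165 and 163 on the wild type arrays.

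By median gap, the 13 genes lay closer between replicates than the other bright probe sets in wild type but not in OsRR6ox. The median gap between the arrays of a genotype was 0.127 in OsRR6ox and 0.0775 in wild type, against 0.105 in OsRR6ox and 0.150 in wild type for the other bright probe sets, and 0.154 in OsRR6ox and 0.180 in wild type for all probe sets. In 8 of the 13 genes the OsRR6ox gap was the wider, where it was so in 44.7% of all probe sets and 38.8% of the other bright ones. The widest gaps were 0.276 in OsRR6ox, for AT5G27700, and 0.306 in wild type, for AT4G16190. In 4 of the 13 genes the difference between genotypes exceeded both gaps, namely AT2G45180, AT5G15200, AT1G52300 and AT3G60245, where 33.8% of all probe sets and 36.9% of the other bright ones did so.

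**Figure D3:**
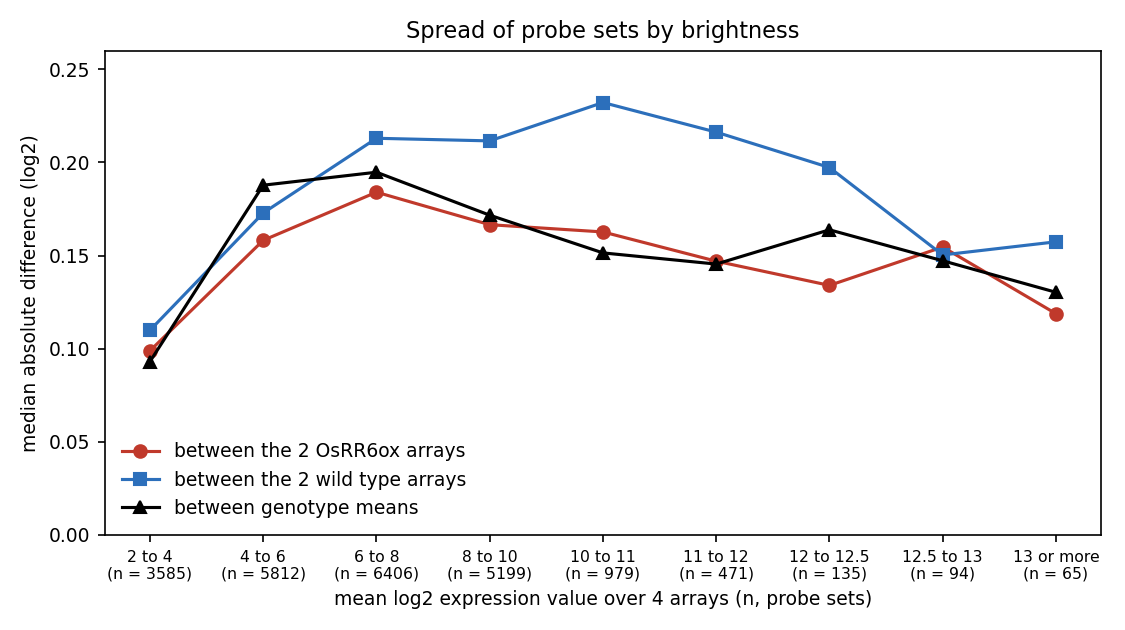
Median absolute difference (vertical axis, log2) between the 2 OsRR6ox arrays (red circles), between the 2 wild type arrays (blue squares) and between genotype means (black triangles), for probe sets binned by their mean value over 4 arrays (horizontal axis). In the 2 brightest bins, below and above 13, which hold 10 and 3 of the 13 genes, the median difference between genotypes was 0.147 and 0.130, against 0.195 between 6 and 8.

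Calls were absent from the brightest range, where 1.3% of all probe sets were called. At that share only a few calls would fall in a range of this size. Of 94 probe sets with a mean between the limit and 13, and of 65 with a mean of 13 or more, 0 passed (limma, 10 and 6 with an unadjusted p under 0.05), where 2 of 135 did between 12 and the limit and 111 of 6406 between 6 and 8. The highest value of an array lay between 14.05 and 14.22. Bright probe sets can respond less than in proportion to their transcript as the signal nears the top of the scanner's range. Whether the values of the 13 genes are compressed in this way was not tested, as the deposited values carry no saturation flags.

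**Figure D4:**
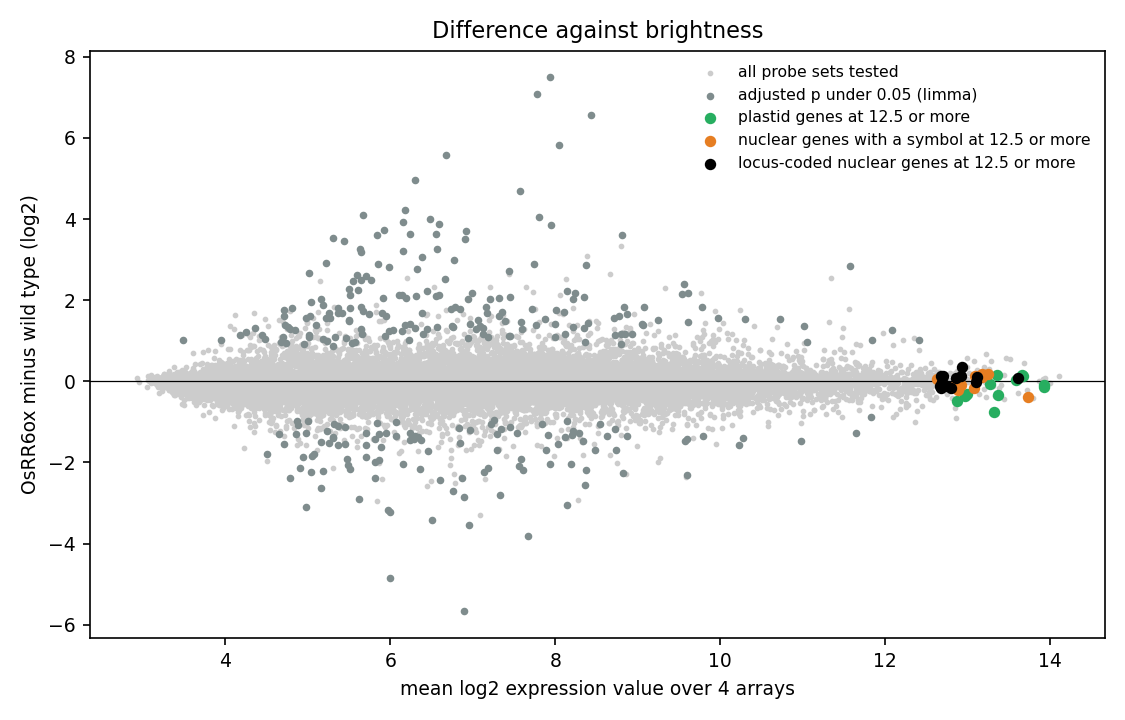
Difference between OsRR6ox and wild type (vertical axis, log2) against the mean value over 4 arrays (horizontal axis, log2) for all probe sets tested (light grey), those with a limma adjusted p under 0.05 (dark grey), and the bright probe sets of plastid genes (green), nuclear genes with a symbol (orange) and locus-coded nuclear genes (black). The 13 black points lie between -0.18 and 0.35, and the green points between -0.76 and 0.16.

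The bright genes with a symbol were set beside them, nuclear and plastid genes apart. Of the 10 nuclear ones, 5 differed by less than 0 and 5 by more, from -0.38 for RCA, which encodes rubisco activase, to 0.19 for the peroxidase gene PRXR1, and 0 passed (limma, 0 with an unadjusted p under 0.05). RCA read 13.41 and 13.68 in OsRR6ox and 13.78 and 14.05 in wild type. Of the 12 plastid genes, 8 differed by less than 0, with a median of -0.11, and 0 passed (limma, 3 with an unadjusted p under 0.05). The lowest was the ribosomal protein gene rps4, at 12.88 and 12.99 in OsRR6ox and 13.68 and 13.71 in wild type, a difference of -0.76 (limma adjusted p = 0.0732). The mean of the 13 genes less the mean of the 12 bright plastid genes of the same array was -0.41 and -0.44 in OsRR6ox and -0.57 and -0.68 in wild type, without overlap. Less the mean of the 10 bright nuclear genes with a symbol, it was -0.14 and -0.17 in OsRR6ox and -0.25 and -0.19 in wild type, also without overlap. Of all probe sets taken one by one, 46.1% showed no overlap between genotypes, but that share is not a background for contrasts of set means. No p is given for these contrasts, since all of these sets were chosen by their levels on these arrays.

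The brightness limit cuts through a continuous range. Just inside it by their lowest array were AT5G35530 at 12.506, AT3G24830 at 12.539 and AT4G16190 at 12.547. Just outside were AT3G11630 at 12.483, AT3G15450 at 12.475 and AT1G74470 at 12.446, which the reference table names as a geranylgeranyl reductase, an enzyme of chlorophyll side-chain synthesis. AT1G74470 read 12.87 and 12.64 in OsRR6ox and 12.45 and 12.70 in wild type, so a single wild type array kept it out.

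Locus-coded genes that reached the limit on both arrays of a single genotype show what the rule leaves out. On both OsRR6ox arrays only, there were 6 such genes. AT1G09310 read 12.98 and 12.59 in OsRR6ox and 12.19 and 11.86 in wild type, a difference of 0.76 (limma adjusted p = 0.175). AT1G13930 read 13.27 and 12.77 in OsRR6ox and 12.64 and 12.44 in wild type, a difference of 0.48. Besides AT1G74470, the others were AT3G49910 at 0.31, AT2G19730 at 0.22 and AT1G67430 at 0.19. On both wild type arrays only, there were 2. AT2G26500 read 12.78 and 12.27 in OsRR6ox and 13.18 and 13.17 in wild type, a difference of -0.65 (limma adjusted p = 0.233), and AT1G01100 differed by -0.10. None of these 8 genes passed, where 1.3% of all probe sets did (limma adjusted p under 0.05). The unadjusted p was 0.0110 for AT1G09310 and 0.0203 for AT2G26500, where 15.0% of all probe sets fell under 0.05 (limma). Thus 0 locus-coded genes that reached the limit on both arrays of either genotype were called. The 8 genes were taken for reading high in 1 genotype only, which favours wide differences in that direction. Their differences are therefore a description and not a test. The widest, 0.76 and -0.65, lay outside the range of the 13 genes, which that choice also favours.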

How the data were processed

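The authors deposited log2 expression values of 22810 probe sets on 4 arrays. The submitters' processing notes name R 3.4.0. Labelling followed the Affymetrix 3′ IVT method, per the labels' protocols. No source used here gives the background correction, summarisation, normalization or genome build, so no coordinates are printed. After 64 control probe sets were left out, 22746 were tested. Of these 13513 have a single gene in the platform annotation, 503 several and 8730 none, and 13436 of the first were matched by gene identifier to the TAIR10.1 reference table for names and neighbours. Groups came from the sample titles.

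OsRR6ox was compared with wild type with a two-sided moderated test on genotype alone (limma 3.58.1, R 4.3.3, functions lmFit and eBayes) on the deposited log2 values, with Benjamini-Hochberg adjustment over all 22746 probe sets. The fit was tested on simulated data. The genes, lists and alternatives were chosen with earlier results of these data known. By rule, the named genes were the 10 brightest, those past the threshold or with the largest differences without overlap, the brightest of each family, those nearest the limit and those with wide replicate gaps, which took in all 13. Other genes were named after their values were seen. Planned promoter and protein features were not analysed here. Of the planned name lists, those for light harvesting and photosystems and for cytosolic ribosomal proteins were run, and the others were not. The first held 1 of the 13 genes. The second matched 0 measured genes by name, so it could hold none of the 13. Alternatives were other normalizations, variance models, array weights, filters, level limits, the replicate number as a block and leaving out each array.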

Additional observations from a re-analysis of the deposited data

How the results depend on the processing

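In either direction 0 of 13 genes passed under every alternative run except spike-in centring, which gave 1 call, higher in OsRR6ox, where 13.2% of all probe sets were called. This includes limma with the replicate number as a block, which gave 0 calls and a median of 0.0766. Same-numbered arrays deviated together with a correlation of 0.259 over all probe sets, but the labels do not say that a number marks a shared batch, and calls over all probe sets were 105 with the block and 296 without it. The median difference of the 13 genes, 0.0766 as deposited, was 0.604 after spike-in centring, 0.0457 after quantile normalization and 0.0389 to 0.054 with an array left out. With other limits it was 0.0165 for the 41 genes with a log2 value of 12 or more on each array and -0.0235 for genes that reached the limit on both wild type arrays. For the 19 genes that reached it on both OsRR6ox arrays the median was 0.135. These last 2 choices use the arrays of 1 genotype only, which favours genes that read high in that genotype. The level rule itself gave 3 genes at 13 or more on each array and 21 by the mean. Spike-in centring turned the sign of 6 genes, since it shifts all probe sets alike, with AT2G43030 at 0.50, AT3G24830 at 0.41, AT3G60245 at 0.50, AT4G01150 at 0.40, AT4G16190 at 0.35 and AT5G27700 at 0.37. With an array left out, AT4G01150 (CURT1A) ran from -0.263 to 0.0075 and AT2G43030 from -0.0652 to 0.0124. The median of the light harvesting and photosystem list, -0.128, was 0.40 after spike-in centring and ran from -0.141 to 0.0767 with an array left out, the highest value without wild type replicate 2. Apart from the uniform shift by spike-in centring, the cause of these moves was not tested.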

Other observations

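Most genes next to the 13 on the chromosome, in the order of the TAIR10.1 reference table, were not measured. Of 26 neighbours, 8 were measured by a probe set of a single gene. Their means over 4 arrays lay between 4.42 and 8.81 with a median of 6.32. All probe sets of a single gene had medians of 6.23 to 6.29 on the 4 arrays, so such levels are usual. Of the 8 neighbours, 0 passed the comparison of genotypes, where 1.3% of all probe sets did (limma, differences of -0.30 to 0.48). An unadjusted p under 0.05 was found for 1 of the 8, where 15.0% of all probe sets had it (limma). The neighbour with the widest difference was AT4G16180, beside AT4G16190. It read 9.09 and 9.01 in OsRR6ox and 8.72 and 8.42 in wild type, a difference of 0.48 without overlap (limma adjusted p = 0.247), where AT4G16190 itself differed by -0.18. ATG8E, a gene of autophagy beside AT2G45180, read 8.20 and 8.61 in OsRR6ox and 8.51 and 8.56 in wild type, a difference of -0.13, where AT2G45180 differed by 0.35.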
